A study of Homo sapiens with 4 samples.

Results

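The response of A375 melanoma cells to silencing of LINC00622 was described across all genes with 10 or more counts in at least 1 of the 2 A375 libraries, which were 16021 of the 17755 genes listed. A375 is an established human melanoma cell line. The siLINC00622 library came from A375 cells transfected with siRNA against LINC00622, and the siNC library from A375 cells transfected with a control siRNA whose sequence is not given. Both cultures stayed for 6 h in DMEM without serum and then for 24 h in DMEM with serum, and poly(A) RNA was sequenced. There was 1 library on each side, so differences between these libraries cannot be told apart from differences between single cultures, and no test was made. SK-MEL-28, another established melanoma line, was likewise treated with siNC or siLINC00622, and its 1 library of each was used only for side-by-side values. Its cultures had the same 6 h without serum and 24 h with serum. Whether both lines received the same siRNA against LINC00622 is not stated in the sources used here.

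LINC00622 is a long non-coding RNA. An siRNA is a short duplex whose guide strand is loaded into an Argonaute protein and directs cleavage of the RNA that it pairs with along its whole length. The same guide can lower other transcripts through pairing of its seed, bases 2 to 8, with sites in their 3′ UTRs, much as a microRNA does. A melanoma line such as A375 cycles quickly under MAPK signaling, so genes for replication, mitosis and growth factor signaling are well expressed in it.

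The study lists 2 siRNAs against LINC00622, and which of them was used for the sequenced cells is not stated in the sources used here. Their target sequences are shown because the seed sites below follow from them. The capitals mark the stretch that pairs with the guide's seed. Both targets lie in the single exon of LINC00622, which is encoded by the minus strand in GRCh38, at chr1:119598699-119598717 for siLINC00622_1 and chr1:119598439-119598457 for siLINC00622_2.
siLINC00622_1: ccctaaagaaaGTGAGAAa
siLINC00622_2: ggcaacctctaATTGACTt

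The library total was 31269923 counts for siNC and 36384819 for siLINC00622. Changes are log2 ratios, in which siLINC00622 is divided by siNC after TMM scaling and a prior count of 2 is added. Each ratio has a 95% Clopper-Pearson interval that covers counting error only. A gene was called higher or lower when its ratio was beyond 1.5-fold, which is 0.58 on the log2 scale, and its interval left out 0. By this rule 499 genes were higher (3.11% of those measured), 432 were lower (2.70%) and 15090 were neither. The median ratio of all genes was 0.00 and 49.3% of genes were below 0. The 25th and the 75th percentile of the ratios were -0.17 and 0.18. Of the 3062 genes with 3000 or more counts, 1.96% were called, against 10.4% of the 3713 genes between 10 and 100 counts, where the ratios scattered more (SD across genes 0.22 and 0.53). Genes of different types had medians close to 0, with 0.01 for 12263 protein-coding genes, 0.05 for 709 lincRNAs and -0.10 for 756 processed pseudogenes.

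**Figure D1:**
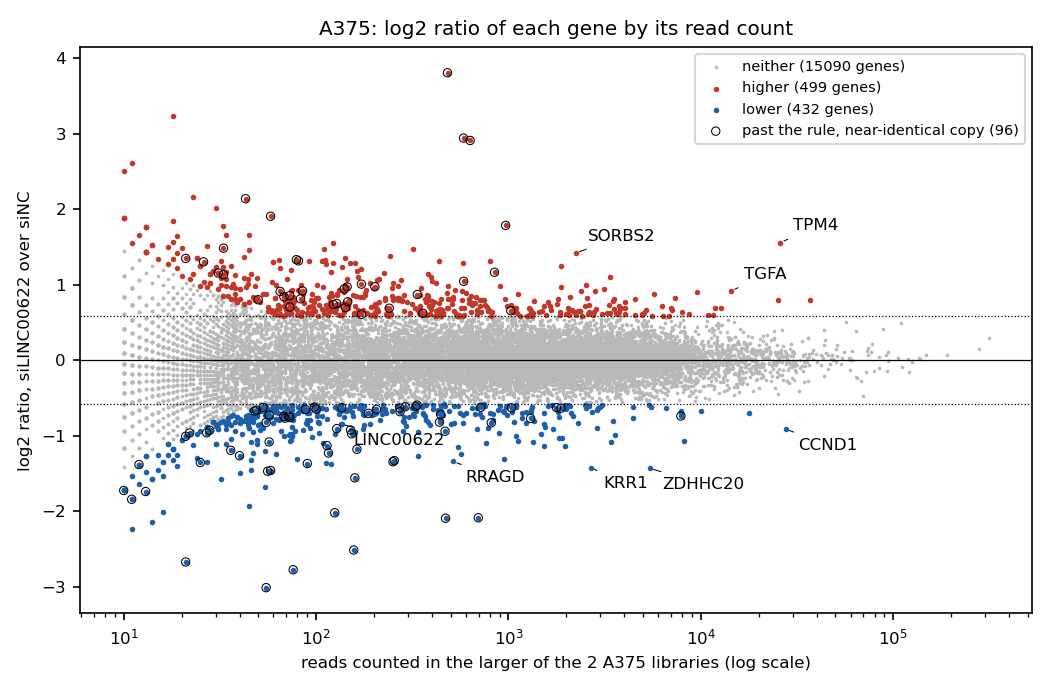
Log2 ratio of siLINC00622 over siNC (vertical axis) against the read count in the larger of the 2 A375 libraries (horizontal axis, log scale) for 16021 genes. Red points are the 499 higher genes, blue points the 432 lower genes and grey points the rest, dotted lines mark a 1.5-fold change, and circles mark called genes with near-identical copies; TPM4 and TGFA stand out among genes with many counts on the upper side, and CCND1, ZDHHC20 and KRR1 on the lower side.

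The targeted LINC00622 had 135 counts with siNC and 86 with siLINC00622. Its log2 ratio was -0.84 (interval -1.27 to -0.46), so it was among the genes called lower, and its level per length was low in both libraries, with an FPKM of 2.75 and 1.51. The labelled cell type was checked against melanocyte lineage markers. SOX10, a transcription factor among these markers, had 15109 and 22107 counts, an FPKM of 118 and 149. PRAME had an FPKM of 36.5 and 34.3, and MITF 5.29 and 4.95. Few reads fell on the pigment enzymes TYR, with 17 and 22 counts, and TYRP1, with 13 and 6. The FPKM was also low for DCT (0.64 and 0.62), S100A1 (0.66 and 0.63), MLANA (0.98 and 0.88) and PMEL (2.24 and 2.35). S100B, the remaining marker of this lineage, had 313 and 552 counts. Of the markers of other cell types, 3 of 10 for keratinocytes, 2 of 8 for fibroblasts, 1 of 6 for endothelial cells and 1 of 8 for immune cells were listed in the table. All 5 epithelial markers were measured. KRT18 had 7975 and 7302 counts, an FPKM of 83.1 and 65.4, and 4 of the 5 were below 0, with a median log2 ratio of -0.32. KRT10, KRT14 and KRT15 had log2 ratios between -0.25 and 0.07. LUM, a matrix proteoglycan listed among the fibroblast markers, was higher at 187 and 372 counts, and PDGFRB had 416 and 547.

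Among the genes with the clearest loss, defined as the interval bound farthest below 0 among genes with 50 or more counts and no near-identical copy, the first was ZDHHC20, which encodes a palmitoyltransferase. ZDHHC20 had 5418 counts with siNC and 2323 with siLINC00622, a log2 ratio of -1.43 (interval -1.50 to -1.36). KRR1, a factor of the small ribosomal subunit processome, had 2672 and 1152 counts and a ratio of -1.42 (interval -1.52 to -1.32). ABHD5, the coactivator of the triglyceride lipase ATGL, had 944 and 439 counts and a ratio of -1.31. The intervals of all of these lay far from 0. RRAGD, which encodes the Rag GTPase RagD, followed with 515 and 234 counts and a ratio of -1.34 (interval -1.58 to -1.12). KLF2, a transcription factor induced by MEK5 and ERK5, had 565 and 276 counts, a ratio of -1.24.

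The rest of the 25 most clearly lower genes fall into several roles. Ubiquitin ligase components were RNF138 with 1523 and 797 counts (-1.14), FBXO28 with 3421 and 1858 (-1.09) and FBXO48 with 112 and 49 (-1.36). RNA-related genes were TRUB1, a tRNA pseudouridine synthase, with 1829 and 1034 counts (-1.03), LTV1, which matures the small ribosomal subunit, with 760 and 411 (-1.09, with 28% of its exonic sequence shared with another gene on the same strand), and POLR3F, a subunit of RNA polymerase III, with 1098 and 633 (interval of the ratio -1.15 to -0.86). Cell cycle genes were CCND1, which encodes cyclin D1, with 27575 and 16963 counts (-0.91, interval -0.94 to -0.88), and CCNA1 with 119 and 52 (-1.37, interval -1.90 to -0.92). CCND1 had by far the most reads of these genes, at an FPKM of 185 and 97.9 in the same order.

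Metabolic and membrane trafficking genes among them were ENOPH1 of the methionine salvage pathway with 1891 and 1067 counts (-1.03), ERG28, a scaffold of sterol synthesis, with 547 and 285 (-1.14), GXYLT1, a xylosyltransferase, with 1342 and 732 (-1.08), PIK3R4, the VPS15 subunit of the class III PI3-kinase, with 2902 and 1796 (-0.90), and CHCHD3, a component of the mitochondrial MICOS complex, with 3577 and 2087 (-0.99). ESM1, a secreted proteoglycan, had 1117 and 615 counts (-1.07) and PEAR1, a membrane receptor, 337 and 160 (-1.27). FAM217B (1956 and 1027), ZBTB41 (1477 and 865), C1orf35 (893 and 528), SAPCD2 (1712 and 1051) and TMEM145 (80 and 36) complete the 25, with log2 ratios from -1.31 for TMEM145 to -0.91 for SAPCD2.

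The most clearly higher gene was TPM4, which encodes a tropomyosin of actin filaments, with 7617 counts for siNC and 25915 for siLINC00622. Its log2 ratio was 1.56 (interval 1.52 to 1.59), and its FPKM was 19.7 and 57.6. Other genes of the actin cytoskeleton were among the 25. SORBS2, an adaptor of actin adhesions, had 720 and 2231 counts (1.42), GSN, the actin-severing gelsolin, 4415 and 9551 (0.90), and ACTA2, smooth muscle actin, 37 and 111 (1.33, interval 0.83 to 1.95). SYNC, an intermediate filament binding protein, had 158 and 396 counts (1.11), but 49% of its exonic sequence overlaps RBBP4 on the other strand, and the library kit does not mark strand. This group did not extend to the whole list of actin filament and SRF target genes, whose median ratio was 0.05. Of 28 members of the list 2 were higher and 0 lower, beside 3.11% higher and 2.70% lower over all genes. ACTB, the member with most reads, had 117544 and 138007 counts, a ratio of 0.02.

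Secreted factors, receptors and signaling genes made up another part of the higher genes. TGFA, a ligand of the EGF receptor, had 6583 and 14357 counts, a log2 ratio of 0.92 (interval 0.87 to 0.96) and an FPKM of 42.8 and 80.2. FBN1, which encodes the microfibril protein fibrillin, had 1355 and 3372 counts (1.10), and IGFBP5, which binds insulin-like growth factors, 150 and 435 (1.32). RGS16, a GTPase-activating protein for G proteins, had 278 and 803 counts (1.32, interval 1.12 to 1.52). GPR153, an orphan receptor, had 1086 and 2379 (0.92), ORAI3, a calcium channel subunit, 86 and 225 (1.16), and FYB1, an adaptor protein, 42 and 122 (1.29). SCARA5, a ferritin receptor, had 98 and 318 counts (1.47). All of these intervals lay above 0, and ORAI3 shares 53% of its exonic sequence with another gene on the same strand.

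STX12, an endosomal SNARE, had 684 and 1884 counts and a log2 ratio of 1.25 (interval 1.13 to 1.38), and SYTL2, an effector of Rab27 in vesicle transport, 827 and 1875 (0.97). GBP2, an interferon-induced GTPase, had 205 and 582 counts (1.29) and SLFN5, a Schlafen family gene, 1406 and 3142 (0.95). ST8SIA1, the synthase of ganglioside GD3, had 47 and 142 counts (1.35). MXD4, which antagonizes MYC as a partner of MAX, had 397 and 907 counts (0.98) and ZNF385A, a zinc finger protein that binds p53, 1283 and 2807 (0.92). FBXO2, FAM210B, GLT8D2, C11orf45 and the antisense RNA BCAN-AS1 complete the 25, with ratios from 1.00 for FAM210B to 1.48 for FBXO2.

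The same 50 genes were set beside the SK-MEL-28 libraries, which have controls of their own. Of the 25 lower genes, 23 had 10 or more counts in SK-MEL-28, and 21 of these were lower there too, against a background of 4.99% lower among 14721 genes measured in both lines. All 23 had a ratio below 0, with a median of -1.29 in SK-MEL-28 against -1.09 for the 25 in A375. ZDHHC20 had 4205 and 735 counts there, a ratio of -2.54, and GXYLT1 2977 and 831, a ratio of -1.87. KLF2, at 99 and 76 counts, and TMEM145, at 26 and 23, were called neither in SK-MEL-28.

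Of the 25 higher genes, 22 had 10 or more counts in SK-MEL-28, and 5 of these were higher there, against a background of 2.52%. These 5 were TPM4 (1.57), STX12 (1.25), RGS16 (0.89), FBN1 (0.86) and FAM210B (0.76). TGFA was lower in SK-MEL-28, from 318 to 191 counts, and the remaining 16 were neither. SORBS2, for example, had 71 and 68 counts, GBP2 74 and 63, and ST8SIA1 2472 and 2604. Over all genes measured in both lines, 124 of the 362 genes lower in A375 (34.3%) were lower in SK-MEL-28, and these were 16.9% of the lower genes of SK-MEL-28. For the higher genes the overlap was 64 of 410 (15.6%), or 17.3% of those of SK-MEL-28, and 27 of the 410 were lower there. Differences between the lines were not tested.

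**Figure D2:**
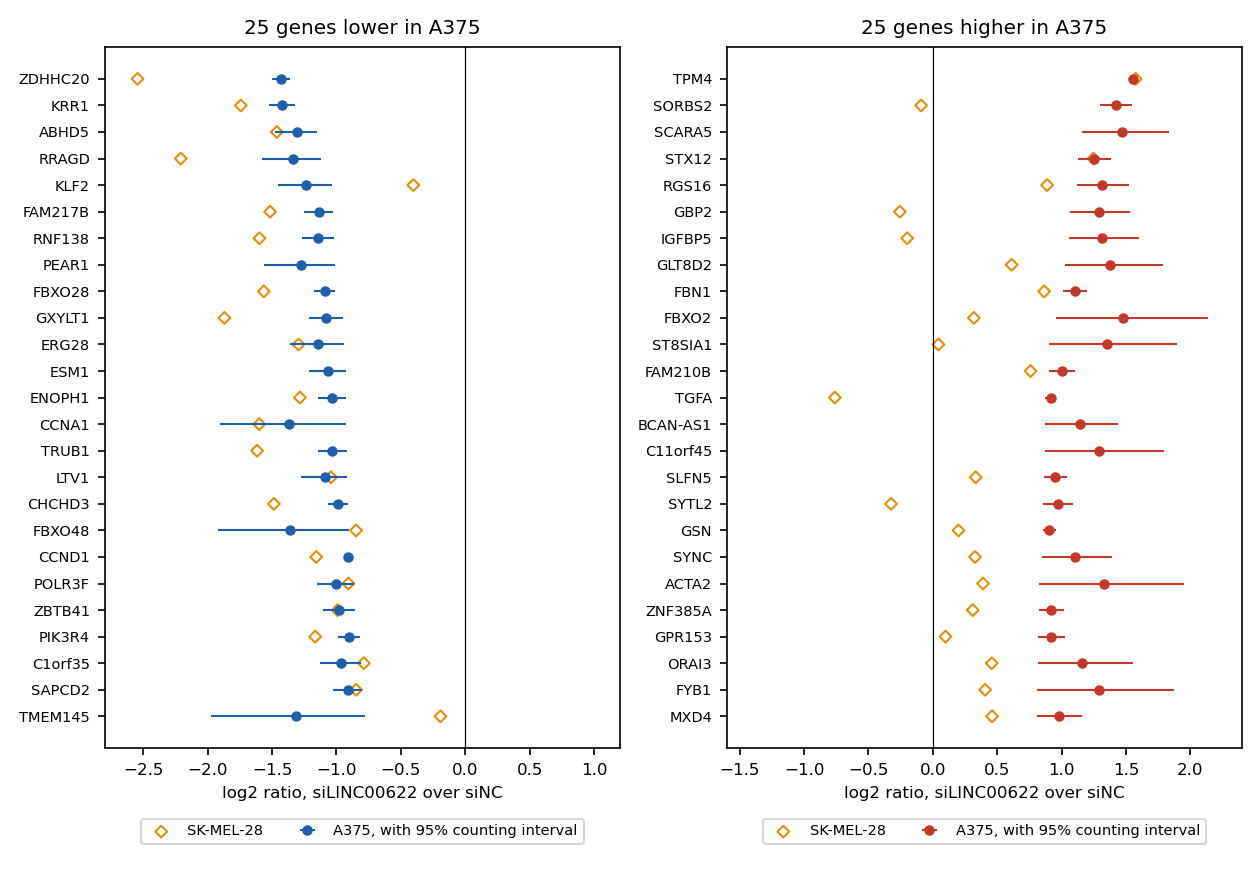
Log2 ratio of siLINC00622 over siNC (horizontal axis) for the 25 most clearly lower (left) and 25 most clearly higher genes (right) of A375, as filled points with 95% counting intervals, beside SK-MEL-28 as open diamonds where it had 10 or more counts. In the left panel all 23 diamonds lie below 0, whereas in the right panel 17 of 22 lie above 0 and 16 were called neither.

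The 3′ UTRs of the most clearly lower genes were searched for the seed sites of both siRNAs, which were not used to choose the genes. At least 1 site of either siRNA was found in 18 of the 25 genes (72%), against 25.4% of the 12226 measured genes with an annotated 3′ UTR and 20.8% of 24 of the most clearly higher genes. Over all 231 lower genes with a 3′ UTR the share was 36.8%. Of these, 26.4% carried a site of siLINC00622_1, against 16.2% of all measured genes, and 13.0% a site of siLINC00622_2, against 12.6%. The median length of the longest annotated 3′ UTR was 2297 bases in the 25 lower genes, 2153 in the 24 higher genes and 1637 in all. Per length, the 25 lower genes held 0.273 sites of siLINC00622_1 and 0.136 of siLINC00622_2 in 1000 bases, whereas all genes held 0.0903 and 0.0658. The sites of siLINC00622_1 stood in 11 of the 25 genes and those of siLINC00622_2 in 8, with ZBTB41 carrying both. Windows of 19 bases are shown for these genes, with the seed site in capitals and positions in GRCh38. Bases outside the seed site are in small letters whether or not they match the target, and the matches are counted below.
KRR1, siLINC00622_1, chr12:75498372-75498390, minus strand: aatattagaatGTGAGAAa
ABHD5, siLINC00622_1, chr3:43721366-43721384, plus strand: ataatctgacaGTGAGAAa
RRAGD, siLINC00622_1, chr6:89367776-89367794, minus strand: aaaaatcccgtGTGAGAAc
KLF2, siLINC00622_1, chr19:16327332-16327350, plus strand: tgtgatgccttGTGAGAAa
RNF138, siLINC00622_1, chr18:32130362-32130380, plus strand: accgtgatataGTGAGAAa
GXYLT1, siLINC00622_1, chr12:42087369-42087387, minus strand: actttaaaagtGTGAGAAa
ENOPH1, siLINC00622_1, chr4:82460974-82460992, plus strand: ctggaatggatGTGAGAAa
CCND1, siLINC00622_1, chr11:69652858-69652876, plus strand: tccttttatagGTGAGAAa
POLR3F, siLINC00622_1, chr20:18484604-18484622, plus strand: cctccagaattGTGAGAAa
PIK3R4, siLINC00622_1, chr3:130679060-130679078, minus strand: atgttatagagGTGAGAAa
ZBTB41, siLINC00622_1, chr1:197156094-197156112, minus strand: accaattataaGTGAGAAt
ZBTB41, siLINC00622_2, chr1:197157489-197157507, minus strand: tagtctttcaaATTGACTt
ZDHHC20, siLINC00622_2, chr13:21376456-21376474, minus strand: atttgtgcagcATTGACTt
FAM217B, siLINC00622_2, chr20:59947662-59947680, plus strand: ttctgcctcagATTGACTa
FBXO28, siLINC00622_2, chr1:224158274-224158292, plus strand: acttccatagtATTGACTg
TRUB1, siLINC00622_2, chr10:114977283-114977301, plus strand: tatacttttaaATTGACTt
LTV1, siLINC00622_2, chr6:143863570-143863588, plus strand: catctttggttATTGACTa

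The windows of siLINC00622_1 matched the target at 8 to 13 of 19 bases, and in 9 of 11 genes the base after the seed site was an A, the base that microRNA sites favor at this place. For siLINC00622_2 the match was 8 to 12 of 19 bases, with an A after the site in 2 of 8 genes. The share of A after the sites of all measured genes was not computed, so these counts have no background. In genes with several sites the window with most matches to the target was taken. The target has an A at this place for siLINC00622_1 and a T for siLINC00622_2, so this choice can shift both counts. C1orf35 and SAPCD2 also carried 1 site of siLINC00622_2 each. GXYLT1 held 4 sites of siLINC00622_1, and KRR1, RNF138, CCND1 and ZBTB41 held 2 each. No window matched the target in full. The 7 genes without a site in the 3′ UTR were PEAR1, ERG28, ESM1, CCNA1, CHCHD3, FBXO48 and TMEM145, all with log2 ratios from -1.37 to -0.99. Sites in coding sequence were left out of these counts. PEAR1 had 1 of siLINC00622_1 there, and RRAGD, for example, had 1 of siLINC00622_1 and 3 of siLINC00622_2.

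Over all measured genes with a 3′ UTR, the share of lower genes was 1.66% of 10240 genes with no site of siLINC00622_1, 2.77% of 1622 genes with 1 site, 3.99% of 276 with 2 and 5.68% of 88 with 3 or more. The share of higher genes was 2.87%, 2.77%, 2.54% and 0% in the same order. With more sites the 3′ UTR was also longer, with medians of 1421, 2969, 4776.5 and 6041 bases, and the part of length in this order was not tested. Medians moved little, from 0.02 with no site to -0.06 with 3 or more. For siLINC00622_2 the share of lower genes was 1.88%, 1.90% and 2.59% with 0, 1 and 2 sites, and 0 of 30 genes with 3 or more were lower. The seed sites of the control siRNA were not tested, since its sequence is not given.

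**Figure D3:**
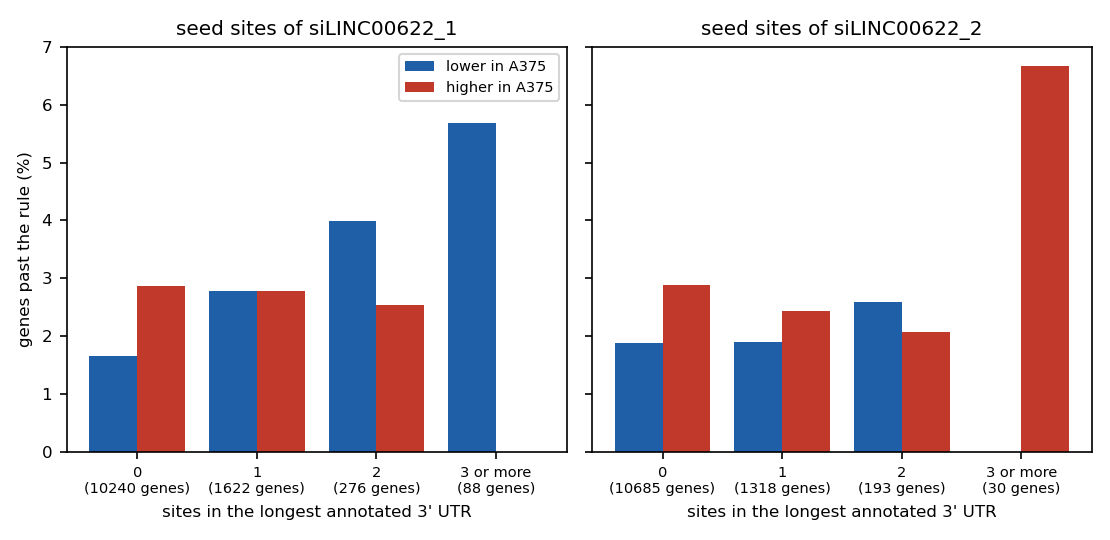
Share of genes called lower (blue) and higher (red) in A375, in percent, by the number of seed sites of siLINC00622_1 (left) and siLINC00622_2 (right) in the longest annotated 3′ UTR, with the number of genes under each pair of bars. On the left the share of lower genes is 1.66% without a site and 5.68% with 3 or more, and on the right the last pair rests on 30 genes.

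Lists of genes by pathway and function were then followed, and their medians are given beside the median of all genes, 0.00. Over all genes 3.11% were higher and 2.70% lower, and the called members of each list are to be read beside these shares. For called members between 10 and 100 counts, the share to set beside them is the 10.4% called in either direction at such counts. The lowest median was that of DNA replication genes and E2F targets, at -0.40. All 41 measured members were below 0, and 6 were lower and 0 higher. E2F2, a transcription factor of the G1 to S transition, had 779 and 483 counts (-0.90), UHRF1, which maintains DNA methylation at replication forks, 7873 and 5454 (-0.74, with 20.9% of its words of 50 bases shared with a gene elsewhere, just past the limit for a near-identical copy), and RRM2, the regulated subunit of ribonucleotide reductase, 17874 and 12736 (-0.70, interval -0.73 to -0.67). LIG1, DNA ligase I, had 2002 and 1482 counts (-0.64). MCM10 and CLSPN were the other called members. The MCM2, MCM3, MCM4, MCM5, MCM6 and MCM7 helicase subunits lay between -0.50 and -0.34, under the 1.5-fold limit. In SK-MEL-28 the median of the list was -0.27, with 2 members lower and 38 of 41 below 0.

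Mitosis genes had a median of -0.36, and all 35 members were below 0 although 0 were called. Their ratios ran from -0.55 for MAD2L1 of the spindle checkpoint to -0.06 for HMMR. MKI67, the proliferation marker with most counts of the list, had 24243 and 21659 counts, a ratio of -0.37 (interval -0.40 to -0.35). CDK1 had a ratio of -0.42 and CCNB1 of -0.41. Among cyclins and CDK inhibitors, 3 of 18 members were lower (CCNA1, CCND1 and CCNE2 with 711 and 499 counts) and 0 higher. Over all genes 2.70% were lower and 3.11% higher. The median of this list was -0.17, and CDKN1A, the p21 inhibitor, had a ratio of 0.54. For CCNE2, 37% of the exonic sequence overlaps INTS8 on the other strand. In bulk RNA, fewer cycling cells and less RNA of these genes per cell cannot be told apart.

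Promoters of these lists were searched for the words their regulators are known for, in the RefSeq stretch from 250 bases before to 50 after the start (GRCh38.p14), on both strands. An E2F word (TTTCCCGC, TTTGGCGC, TTTCGCGC or TTTGCCGC) stood in 21 of 37 promoters of the replication list (56.8%) and in 5.40% of 10530 promoters of measured genes. The CHR word TTTGAA, through which the DREAM complex acts on mitosis genes, stood in 21 of 30 promoters of the mitosis list (70%) and in 9.50% of all. Such words are how these gene classes are known, and a match is a description of the sequence, not a bound site. Stretches of 60 bases from the region before the start are shown with the word in capitals, as it reads on the strand of the gene. The first base of the word lies 42 bases before the start in E2F2, 14 in UHRF1, 20 in PRC1 and 178 in CDC20.
E2F2, E2F word, chr1:23531242-23531301, minus strand: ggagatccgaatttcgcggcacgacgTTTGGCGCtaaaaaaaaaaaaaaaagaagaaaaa
UHRF1, E2F word, chr19:4909441-4909500, plus strand: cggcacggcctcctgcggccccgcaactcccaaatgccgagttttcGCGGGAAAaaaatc
PRC1, CHR word, chr15:90994536-90994595, minus strand: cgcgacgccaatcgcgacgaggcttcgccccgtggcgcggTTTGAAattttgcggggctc
CDC20, CHR word, chr1:43358777-43358836, plus strand: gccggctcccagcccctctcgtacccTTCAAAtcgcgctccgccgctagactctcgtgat

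**Figure D4:**
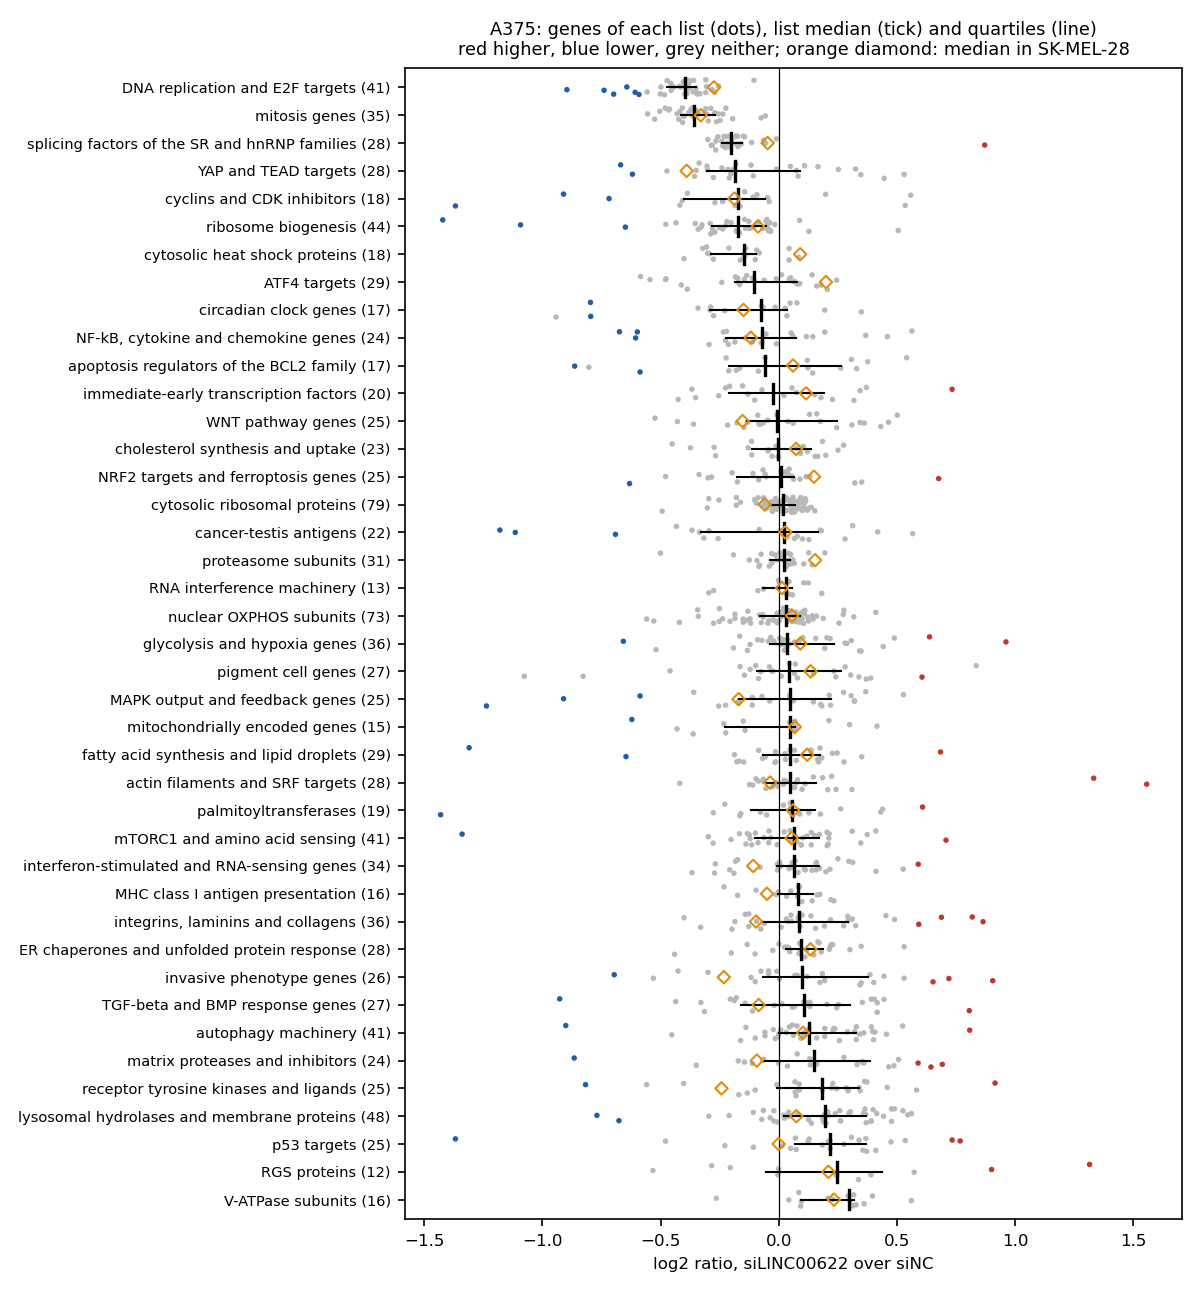
Log2 ratio of siLINC00622 over siNC in A375 (horizontal axis) for every measured gene of the lists with 10 or more members (number in brackets), as dots colored red when higher, blue when lower and grey otherwise, with the list median as a tick, the quartiles as a line and the SK-MEL-28 median as an orange diamond. Replication and mitosis genes lie wholly to the left of 0 with medians of -0.40 and -0.36, and 15 of 16 V-ATPase subunits lie to the right with a median of 0.30.

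Genes for RNA processing and ribosome assembly lay below 0 by smaller amounts. Ribosome biogenesis factors had a median of -0.17, with 41 of 44 members below 0. The 3 lower members were KRR1, LTV1 and NOP2, a ribosomal RNA methyltransferase with 58 and 42 counts (-0.65), of whose exonic sequence 54% overlaps another gene on the same strand. NPM1, nucleophosmin, had most counts of the list, 69642 and 57833, and a ratio of -0.48 (interval -0.49 to -0.46). The SR and hnRNP splicing factors had a median of -0.20, with 27 of 28 members below 0, and HNRNPA2B1 had 68146 and 64860 counts (-0.28). The exception was U2AF1 at 0.87, whose reads cannot be told apart from those of a near-identical copy. Cytosolic ribosomal proteins, in contrast, had a median of 0.02, with 32 of 79 members below 0, and RPS2, which shares 24.2% of its words with a gene elsewhere, a ratio of -0.01.

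On the other side of 0, the subunits of the V-ATPase, the proton pump of lysosomes and endosomes, had the highest median of the lists with 10 or more members, at 0.30. Of 16 subunits 15 were above 0 and 0 were called. ATP6V1A, a catalytic subunit, had 3863 and 6592 counts, a ratio of 0.56 (interval 0.50 to 0.62), just under 1.5-fold, and ATP6V0E2 was the exception at -0.26. Lysosomal hydrolases and membrane proteins had a median of 0.20, with 37 of 48 members above 0. PSAP, the precursor of the saposins, had 15833 and 24022 counts (0.39). The 2 called members went the other way: GM2A, the GM2 ganglioside activator, had 1179 and 799 counts (-0.77), and CTSV, a cathepsin, 55 and 39 (-0.68). The word CACGTGAC, the core of the CLEAR element read by TFEB and related factors, stood in 3 of 11 V-ATPase promoters (27.3%) and 6 of 31 lysosomal promoters (19.4%), against 4.41% of all. As with the E2F and CHR words, this gene class is known by the word, and a match describes the sequence, not a bound site. Autophagy machinery had a median of 0.13, with 31 of 41 members above 0. Of these 41, 1 was higher, WIPI1 (308 and 625 counts), and 1 lower, PIK3R4. The mTORC1 and amino acid sensing genes had a median of 0.06, with 24 of 41 members above 0. Here 1 was lower, RRAGD, and 1 higher, DEPTOR, an mTOR inhibitor (48 and 92). In SK-MEL-28 the medians of these lists were 0.10 and 0.05 in the same order. Of the WIPI1 exonic sequence, 24% overlaps ARSG on the other strand.

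Targets of p53 had a median of 0.22, with 21 of 25 members above 0. BTG2, an antiproliferative gene, had 536 and 1032 counts (0.73) and PURPL, a p53-induced long non-coding RNA, 207 and 409 (0.77), and these were higher. CCNA1 was the 1 lower member. CDKN1A (0.54) and MDM2 (-0.48), both classical targets, lay on opposite sides of 0 and were not called. Replication-dependent histone genes, whose transcripts mostly lack poly(A) tails, had a median of 0.40 over 7 measured members, all above 0, with H2AC6 (82 and 182 counts) and H2BC5 (38 and 76) higher.

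Among matrix proteases and inhibitors 3 of 24 were higher and 1 lower, beside 3.11% higher and 2.70% lower over all genes, with a median of 0.15. Relative to all genes this median was 0.143, and 0.333 without genes that carry a seed site. MMP2, gelatinase A, had 6778 and 12662 counts (0.69, interval 0.65 to 0.73), ADAM19 1207 and 2182 (0.64) and MMP1, the interstitial collagenase, 331 and 577 (0.59), whereas MMP3, stromelysin, had 293 and 185 (-0.87). SERPINE2, a protease inhibitor with most counts of the list, had 68091 and 110385 (0.49). Of the integrins, laminins and collagens 4 of 36 were higher and 0 lower, with a median of 0.09. These were ITGA9 (164 and 347 counts, 0.86), COL5A1 (1247 and 2545, 0.82), ITGA5, the fibronectin receptor subunit (6363 and 11857, 0.69), and LAMA4 (3182 and 5549, 0.59). In SK-MEL-28, ITGA9 and ITGA5 were higher as well, at 1.09 and 0.91, COL5A1, LAMA4, MMP2, ADAM19 and MMP1 were called neither, and SERPINE2 was lower at -0.68. Over these lists in SK-MEL-28, 0 of 23 proteases and inhibitors were higher and 7 lower (median -0.09), and 3 of 36 integrins, laminins and collagens were higher and 8 lower (median -0.10). Of 26 invasive phenotype genes (median 0.10), 3 were higher, SNAI2 (37 and 82 counts), SOX2 (188 and 343) and ROR1 (203 and 388), and 1 lower, CDH1, which encodes E-cadherin (67 and 47). SNAI2 and CDH1 lay between 10 and 100 counts, where 10.4% of all genes were called in either direction. In SK-MEL-28, 0 of 24 invasive phenotype genes were higher and 6 lower, with a median of -0.23.

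Receptor tyrosine kinases and their ligands had a median of 0.18, with 18 of 25 members above 0. Relative to all genes it was 0.180, 0.070 with FPKM and a pseudocount of 1, and 0.077 without genes that carry a seed site. TGFA was the 1 higher member, and AREG, another EGF receptor ligand, the 1 lower member, with 102 and 66 counts (-0.82). AXL, the receptor with most counts, had 16064 and 18467 (-0.01). The MAPK output and feedback genes had a median of 0.05, with 13 of 25 members above 0. Of these 25, 3 were lower and 0 higher, beside 2.70% lower of all genes. They were CCND1, KLF2 and BCL2L11, the BH3-only gene BIM with 362 and 278 counts (-0.59). Inflammatory genes had a median of -0.07 with 3 of 24 lower, beside 2.70% of all genes. These were BIRC3 (444 and 321 counts, -0.67), CXCL8 (1597 and 1213, -0.61) and IL11 (725 and 553, -0.60). The YAP and TEAD targets had a median of -0.19, with 18 of 28 members below 0. Of these 28, 2 were lower and 0 higher, beside 2.70% lower of all genes. The lower members were ANKRD1 (492 and 357 counts) and FSTL1 (1049 and 789). Relative to all genes the median was -0.19, and -0.12 without genes that carry a seed site. In SK-MEL-28 the median of the list was -0.39, with 8 of 28 lower and 0 higher. Of 17 circadian genes (median -0.07) 2 were lower and 0 higher, again beside 2.70% lower of all genes. These were PER2 (216 and 143 counts) and BHLHE41 (90 and 59).

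Metabolic lists stayed near 0 with single members past the rule. In glycolysis and hypoxia genes (median 0.03), ANGPTL4, an inhibitor of lipoprotein lipase, was higher (155 and 351 counts, 0.96), the glucose transporter SLC2A3 was higher (1451 and 2612, 0.64), and the oxygen sensor EGLN3 was lower (57 and 41). In lipid genes (median 0.05), MGLL, monoglyceride lipase, was higher (1525 and 2835, 0.68), and ABHD5 and DGAT2, which makes triglycerides (200 and 147, -0.65), were lower. Malic enzyme ME1 (1912 and 3535, 0.68) was higher and glutathione reductase GSR (2913 and 2174, -0.63) lower among NRF2 targets and ferroptosis genes. Nuclear OXPHOS subunits had a median of 0.03 over 73 members and proteasome subunits 0.02 over 31, with 0 called in either. Cholesterol synthesis and uptake (23 members), WNT pathway genes (25), ER chaperones (28), MHC class I presentation (16), cytosolic heat shock proteins (18), ATF4 targets (29) and the RNA interference machinery (13) also held 0 called members, with medians from -0.15 for heat shock proteins to 0.09 for ER chaperones. Of the heat shock proteins 15 of 18 were below 0, and of the ER chaperones 23 of 28 were above 0. In SK-MEL-28 the medians of these lists were 0.09 and 0.13 in the same order.

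Mitochondrially encoded transcripts had a median of 0.05, and MT-ATP8, which shares 22% of its sequence with MT-ATP6 on the same strand, was lower (5484 and 4121 counts, -0.62). MT-CO1, the gene with most counts in the list, had 220428 and 313734 (0.30), but 42.2% of its words of 50 bases occur in a gene elsewhere. Relative to all genes the median of the list was 0.042, and -0.056 without such copies. DHX58, the RNA sensor LGP2, was the 1 higher member of 34 interferon-stimulated and RNA-sensing genes (116 and 203 counts, 0.59), and ADAR had a ratio of 0.04. Of 22 cancer-testis antigens 3 were called lower, beside 2.70% of all genes. These were MAGEC1 (34 and 17 counts), MAGEB2 (50 and 35) and SSX2 (163 and 82, -1.18). MAGEC1 and MAGEB2 lay between 10 and 100 counts, where 10.4% of all genes were called in either direction. SSX2 has a near-identical copy that its reads cannot be told apart from, and MAGEA4, with 23975 and 30282, had a ratio of 0.13.

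Among the called genes, 35 higher and 61 lower genes had near-identical copies, so that the counting could have split their reads, and few of them are named. Examples were SERF1B, a copy of SERF1A, with 28 and 482 counts, SMG1P2 with 71 and 632, and FAM156A with 157 and 30. For these genes a change of expression and another split of the reads cannot be told apart.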

How the data were processed

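RNA-Seq of A375 and SK-MEL-28 cells with siNC or siLINC00622 was analysed, with 1 library per condition. The authors deposited 1 table. Its counts are whole numbers of reads on each gene, not normalized by the authors. In the CPM columns the authors scaled these to the whole library, and count over CPM gave each library total. In the FPKM columns the authors also scaled for gene length. Per the submitters' processing notes, the tools were HISAT2, TopHat2, Bowtie2 and HISAT and the build hg19, with no roles given. The counting program is not given in the sources used here. The 4 columns of TPM were not used.

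Counts were scaled within A375 by TMM (edgeR 4.0.16, R 4.3.3) on the library totals, of which 99.7% fell on listed genes. Log2 ratios used a prior count of 2 and 95% Clopper-Pearson intervals (Python 3.11.15, scipy) of the 2 counts, which cover counting error only, since the reads carry no molecular identifiers. No test of the conditions was made. Positions, gene types, overlaps and 3′ UTRs came from GENCODE 29 (GRCh38), matched by gene identifier, and promoters from RefSeq. A near-identical copy shares at least 20% of its words of 50 bases with a gene elsewhere. Genes named are LINC00622, RRAGD, the 25 in each direction with the interval bound farthest from 0 (50 or more counts, a symbol, coding or lncRNA, no copy), up to 4 called members per list and direction with the member of most counts, and at most 4 copies. Further list members, named as the ends of a range or to describe a complex, were chosen after their values were seen. The rule, the lists of genes and the named genes were chosen with earlier results of these data known. The functions were tested on simulated counts. Alternatives covered DESeq2 1.42.0 size factors, plain library totals and median centring as scalings, as well as filters, prior counts, thresholds, copies and FPKM.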

Additional observations from a re-analysis of the deposited data

Results flagged for a closer look

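Some changes of A375 and SK-MEL-28 that pointed in opposite directions were picked out among the named genes and the lists. They are not the full set. Of 410 genes higher in A375, 27 were lower in SK-MEL-28, against a background of 4.99%. Of 362 genes lower in A375, 7 were higher there, against 2.52%. Other lists, such as cytosolic heat shock proteins (-0.15 in A375 and 0.09 in SK-MEL-28), also had medians on opposite sides of 0. Each rests on 1 library per condition, and the difference between the lines was not tested.

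TGFA, the EGF receptor ligand, had a log2 ratio of 0.92 in A375 and -0.76 in SK-MEL-28, where its counts were 318 with siNC and 191 with siLINC00622. RGS9, a regulator of G protein signaling, had 64 and 140 counts in A375, a ratio of 0.90, and 47 and 18 in SK-MEL-28, a ratio of -1.32. S100B, a calcium-binding protein of melanocytic cells, had 313 and 552 counts in A375, a ratio of 0.61, and 8775 and 5970 in SK-MEL-28, a ratio of -0.59. The median of the ATF4 targets was -0.11 in A375 and 0.20 in SK-MEL-28. Receptor tyrosine kinases and their ligands had medians of 0.18 and -0.24 in the same order, and the A375 median relative to all genes was 0.070 with FPKM and 0.077 without genes that carry a seed site.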

How the results depend on the processing

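The counts of 499 higher and 432 lower genes stayed within 1.5 times under the other scalings, without a filter, with prior counts of 0.5 and 5, without near-identical copies, and, added after the data were seen, without genes that carry a seed site. They changed more with 100 or more counts (320 higher and 225 lower), a fold above 2 (124 and 108), a fold above 1.5 at the interval bound (126 and 90) and FPKM with a pseudocount of 1 (131 and 171). With the fold alone, 724 were higher, within 1.5 times, and 696 lower. The LINC00622 ratio stayed inside its counting interval under all 5 alternatives, but with FPKM and a pseudocount of 1 it was -0.58, just short of the 1.5-fold limit. Of 356 alternative list medians, 355 stayed within the 95% binomial order-statistic interval of the list's median, which is wide for short lists, and the exception was the replication list with FPKM, at -0.371 relative to all genes. Inside that interval, several medians relative to all genes moved by over 1.5 times. Without genes that carry a seed site, matrix proteases went from 0.143 to 0.333, circadian genes from -0.078 to -0.29, receptor tyrosine kinases from 0.180 to 0.077, YAP and TEAD targets from -0.19 to -0.12 and ATF4 targets from -0.110 to -0.071. With FPKM, RGS proteins went from 0.240 to 0.098, histones from 0.40 to 0.27, receptor tyrosine kinases to 0.070, ATF4 targets to -0.071 and epithelial markers from -0.323 to -0.154. No named gene that was called changed sign. Of the 750 alternative ratios of named genes, 52 left their counting interval, 51 of them with FPKM. An analysis paired by cell line, which would rest on 2 pairs, was not run. With 1 library per condition no replicate could be left out. Counting error limits genes near 10 counts.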
